A study of Mus musculus with 18 samples.

Results

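The clustered histone genes of mouse kidney cortex were followed in Klf15 PTKO and Klf15 fl/fl mice given aristolochic acid I or vehicle. They were taken from a table of 24062 genes as the rows whose name begins with Hist1h, Hist2h, Hist3h or Hist4h and whose value was above 0 in at least 6 of 18 libraries. Of 68 rows with such a name, 43 met this rule and 25 did not, 10 of them because they were at 0 in every library. The values are RPKM, reads scaled to gene length and library size, so levels of different genes can be compared per length. By histone class, the rule kept 6 of 6 linker histone (H1) rows, 9 of 18 H2A rows, 12 of 19 H2B rows, 7 of 12 H3 rows and 9 of 13 H4 rows. By cluster, it kept 33 of 54 rows of cluster 1 on chromosome 13, 6 of 10 of cluster 2 on chromosome 3, 3 of 3 of cluster 3 on chromosome 11 and 1 of 1 of cluster 4 on chromosome 6. One of the 43, Hist3h2bb-ps, is a pseudogene by its name.

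All libraries came from perfused kidney cortex of C57Bl/6 mice and were prepared with a stranded total RNA kit. Klf15PTKO mice (PTKO) lost the zinc finger factor Klf15 in the proximal tubule, per the study's title, and Klf15fl/fl mice (fl/fl) carry the floxed gene. Each genotype received DMSO vehicle, 2 weeks of aristolochic acid I, a plant toxin of the proximal tubule (AA 2wk), or that course and a further 2 weeks of remodeling (AA 4wk), with 3 libraries in each of the 6 groups. The labels state neither the Cre line nor the exons removed nor the age of the mice, and they name no group that has Cre with an intact Klf15. The same DMSO libraries of a genotype serve both courses, so the effects of AA 2wk and AA 4wk share their reference. Nothing in the labels says that the 3 libraries of a group are separate mice, so p-values measure only the spread between these samples.

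Replication-dependent histone genes supply the H2A, H2B, H3 and H4 proteins that wrap DNA into nucleosomes and the H1 linker histones that bind the DNA between them. Most are transcribed in S phase, when chromatin is copied, and their mRNAs end in a conserved stem-loop in place of a poly(A) tail. The stem-loop is bound by Slbp and the pre-mRNA is cut with the help of the U7 particle. Some clustered genes also give polyadenylated mRNAs in cells that no longer divide. The adult tubule divides little at rest, and surviving tubule cells re-enter the cell cycle after toxic injury.

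The stem-loop is what these mRNAs share, and it is shown here because it decides how such an mRNA is processed. A search for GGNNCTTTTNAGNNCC on the transcript strand found it in at least 1 annotated transcript of 44 of the 68 rows (64.7%), against 89 of 55341 annotated genes (0.161%; GENCODE M21). In the 7 sites that follow, written as DNA from 5′ to 3′ with 5 bases on each side, capitals mark the stem-loop.
Hist1h1c: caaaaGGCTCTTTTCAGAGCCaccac
Hist1h1d: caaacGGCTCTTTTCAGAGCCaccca
Hist3h2a: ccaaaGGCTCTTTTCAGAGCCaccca
Hist1h2bk: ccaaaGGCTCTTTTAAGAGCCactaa
Hist1h3d: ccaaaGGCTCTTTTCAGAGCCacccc
Hist1h4h: ccaaaGGCCCTTTTCAGGGCCgccca
Hist1h4i: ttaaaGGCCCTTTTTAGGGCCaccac
On GRCm38 (mm10) the sites lie at chr13:23739507-23739532 (Hist1h1c, plus strand), chr13:23555782-23555807 (Hist1h1d, plus) and chr11:58955167-58955192 (Hist3h2a, plus). The others lie at chr13:22036295-22036320 (Hist1h2bk, plus), chr13:23576239-23576264 (Hist1h3d, plus), chr13:23531453-23531478 (Hist1h4h, plus) and chr13:22040961-22040986 (Hist1h4i, minus).

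Among the 44 rows that hold the loop, the H4 rows differ from the rest. All 11 H4 rows have a stem of their own: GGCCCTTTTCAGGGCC in 7, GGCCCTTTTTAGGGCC in 2 and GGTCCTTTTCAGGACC in 2, and no row of another class has any of these. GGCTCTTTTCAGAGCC stands in 3 H1, 10 H2A, 8 H2B and 5 H3 rows, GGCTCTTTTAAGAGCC in 1 H1, 2 H2B and 3 H3 rows, and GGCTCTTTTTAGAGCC in 1 H2A row. The annotated transcripts of Hist1h2bc and Hist2h2be, H2B genes described later, hold no match. A missing match says only that these letters are not in those transcripts.

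The library depth, recovered from the steps between RPKM values, ran from 10.98 to 21.92 M reads. The AA 2wk libraries numbered 3 of both genotypes stood apart from their groups, and results that change without them are given both ways. Klf15 itself had 28.5 to 32.6 RPKM in PTKO DMSO libraries and 53.0 to 65.5 RPKM in fl/fl DMSO libraries, 12.5 to 25.6 in PTKO AA 2wk and 18.6 to 41.3 in fl/fl AA 2wk, and 8.81 to 9.53 in PTKO AA 4wk and 11.6 to 18.8 in fl/fl AA 4wk. The proximal tubule markers that define most of the cortex were present in every group, with a summed level of 6340 to 6940 RPKM in PTKO DMSO and 6100 to 7090 RPKM in fl/fl DMSO libraries. Gapdh, a glycolytic enzyme gene that every cell uses, was listed at only 0.366 to 1.69 RPKM, so a low value in this table need not mean a silent gene. In these bulk samples, fewer cells of a type and less RNA per cell cannot be told apart.

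Reads of the 43 genes were concentrated in few of them. Of 64593 reads over all libraries, Hist1h2bc held 62.52%, Hist1h1c 22.04% and Hist3h2a 6.08%, together 90.65%, and the other 40 genes shared 6041 reads. Only 13 genes reached 1 RPKM in at least 3 libraries and were tested: 3 H1, 1 H2A, 5 H2B and 4 H4 genes, and no H3 gene. The other 30 had between 7 and 68 reads each over all libraries, 734 in all, and are described through their reads. At the edge of the rule, Hist1h2ai (mean 0.0630 RPKM), Hist1h2ak (0.0647), Hist1h3i (0.0531), Hist1h2bh (0.0560) and Hist1h1t (0.0384) were just inside, above 0 in 6 libraries. Hist1h2bf (0.0582), above 0 in 5, was just outside.

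**Figure D1:**
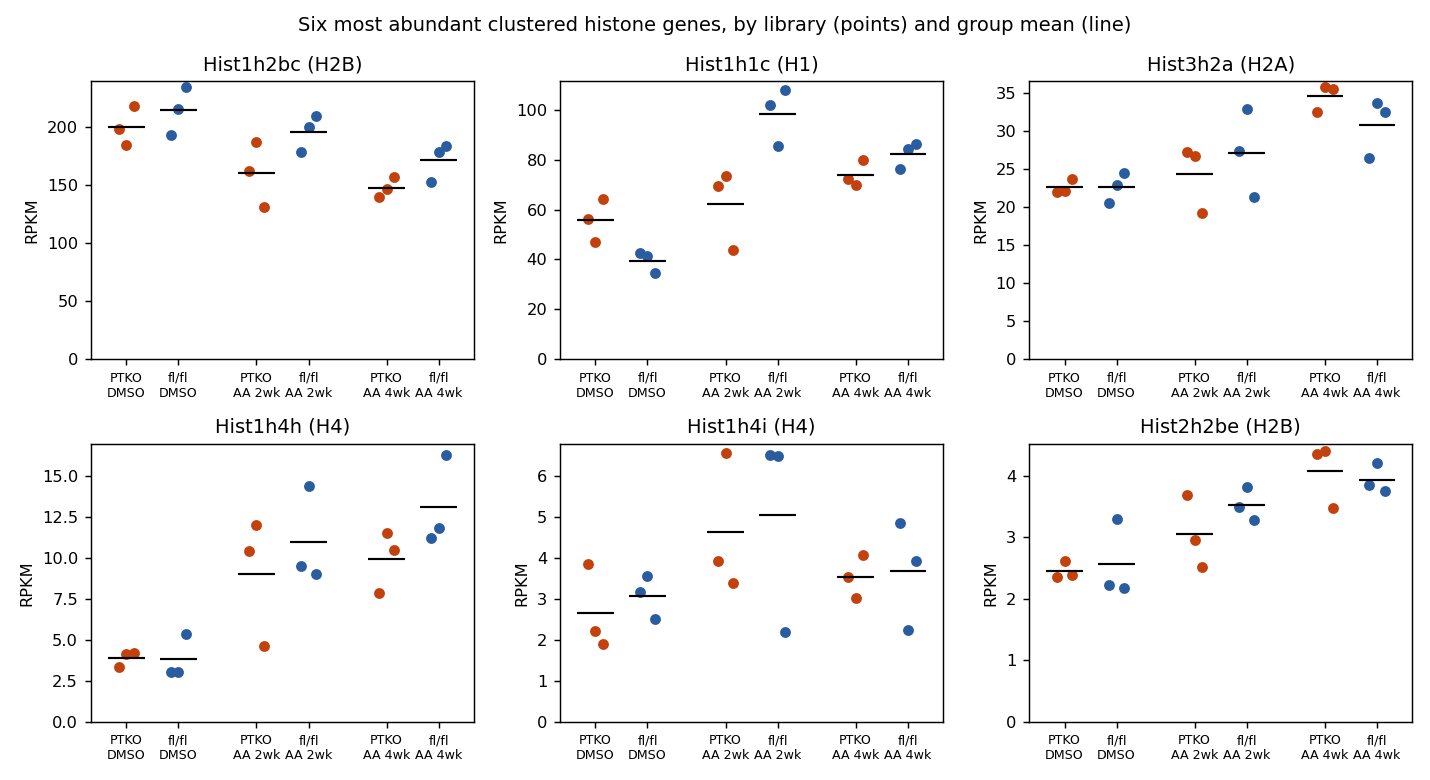
RPKM (linear axes) of the tested histone genes with the highest mean level, by group; each point is 1 library and each line the group mean, with PTKO left of fl/fl at each stage. Hist1h2bc lies between 131 and 234 RPKM in all libraries, while Hist1h1c and Hist1h4h stand higher in fl/fl AA 2wk and AA 4wk than in fl/fl DMSO libraries.

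Of the linker histone genes, Hist1h1d and Hist1h1e were called higher in both courses of both genotypes, and Hist1h1c in 3 of the 4 comparisons. Hist1h1c (chr13:23738808-23740367, plus strand) codes for a linker histone found in most somatic cells. In PTKO its level was 56.1, 47.0 and 64.3 RPKM in DMSO, 69.4, 73.4 and 44.0 RPKM in AA 2wk, and 72.3, 69.9 and 80.0 RPKM in AA 4wk libraries. The fl/fl levels were 42.6, 41.4 and 34.4 RPKM in DMSO, 102, 85.5 and 108 RPKM in AA 2wk, and 76.4, 84.5 and 86.5 RPKM in AA 4wk libraries. Every fl/fl library of either course lay above every fl/fl DMSO library, while PTKO AA 2wk overlapped PTKO DMSO. Lying wholly above vehicle was common: 46.9% of all tested genes did so in PTKO AA 2wk, 60.5% in PTKO AA 4wk, 51.0% in fl/fl AA 2wk and 55.6% in fl/fl AA 4wk, and between 12.3% and 19.9% lay wholly below. The fit across all genes (limma on log2(RPKM + 1), Benjamini-Hochberg adjustment over 13624 genes, SE 0.17) gave log2 fold changes of 1.30 for fl/fl AA 2wk (adjusted p = 2.1e-05) and 1.05 for fl/fl AA 4wk (adjusted p = 7.58e-05) over fl/fl DMSO. Over PTKO DMSO they were 0.41 for PTKO AA 4wk (adjusted p = 0.037) and 0.13 for PTKO AA 2wk (adjusted p = 0.503). Leaving out library 3 of both AA 2wk groups gave 0.36 in PTKO AA 2wk (adjusted p = 0.0212). The PTKO AA 4wk call depended on single libraries: the adjusted p was 0.160 without PTKO DMSO library 2, and under median-of-ratios scaling, described later, the log2 fold change was -0.06.

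Hist1h1d (chr13:23553262-23560686, plus) codes for another somatic linker histone and had at most 0.296 RPKM in a vehicle library. In PTKO it had 0.118, 0 and 0 RPKM in DMSO, 1.33, 0.897 and 0.831 RPKM in AA 2wk, and 1.47, 0.881 and 1.53 RPKM in AA 4wk libraries. fl/fl mice had 0, 0.296 and 0 RPKM in DMSO, 0.601, 1.5 and 0.621 RPKM in AA 2wk, and 1.07, 1.31 and 1.13 RPKM in AA 4wk libraries. No library of either course overlapped vehicle. It rose in PTKO by 0.95 (AA 2wk, adjusted p = 0.000463) and 1.13 (AA 4wk, adjusted p = 6e-05) and in fl/fl by 0.77 (AA 2wk, adjusted p = 0.0019) and 0.99 (AA 4wk, adjusted p = 0.000237) on the log2(RPKM + 1) scale of limma, with an SE of 0.18. With a pseudocount of 1, this scale understates the fold change of a gene at so low a level. No DMSO library of Hist1h1d reached 1 RPKM, so it entered the test through the toxin libraries, and these calls carry that limit. Under quantile normalization the calls were lost in fl/fl (adjusted p = 0.129 for AA 2wk and 0.0697 for AA 4wk). Over all libraries of a group, 37 (AA 2wk) and 42 (AA 4wk) reads in PTKO stood against 2 in PTKO DMSO, and 34 and 48 reads in fl/fl stood against 4 in fl/fl DMSO.

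Hist1h1e (chr13:23620629-23622558, minus), another somatic linker histone gene, overlaps in part the annotated span of Hist1h2be on the same strand, and overlaps Gm11398. The length that its RPKM steps imply, 782 bases, is that of the RefSeq span chr13:23621777-23622558. That span lies outside Hist1h2be. How reads in the overlap of the annotated spans were assigned is not given. The PTKO levels were 0.467, 0.416 and 0.715 RPKM in DMSO, 1.74, 1.34 and 0.721 RPKM in AA 2wk, and 1.89, 0.874 and 1.16 RPKM in AA 4wk libraries. Values in fl/fl were 0.921, 0.734 and 0.565 RPKM in DMSO, 1.27, 2.08 and 1.33 RPKM in AA 2wk, and 1.67, 1.88 and 1.40 RPKM in AA 4wk libraries. The toxin libraries lay above the vehicle libraries in each of the 4 comparisons, by a small margin (0.721 against 0.715 RPKM) in PTKO AA 2wk. It rose in all 4, with limma's log2 fold change between 0.54 and 0.61, an SE of 0.19 and adjusted p from 0.0117 to 0.0236, but was called in none of them under median-of-ratios scaling. It too reached 1 RPKM in no DMSO library. The call was lost without fl/fl AA 2wk library 2 (adjusted p = 0.106) or fl/fl DMSO library 3 (0.0768) in fl/fl AA 2wk, without PTKO AA 4wk library 1 (0.0848) in PTKO AA 4wk, and without any of 4 libraries (0.0652 to 0.120) in PTKO AA 2wk. The other H1 genes had few reads. Hist1h1a had 2, 7 and 7 reads in PTKO and 0, 9 and 12 reads in fl/fl (DMSO, AA 2wk, AA 4wk), and Hist1h1b and the testis linker histone gene Hist1h1t had 14 and 8 reads over all 18 libraries.

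The promoters of 2 linker histone genes, the most abundant one and the one with the lowest vehicle level of the tested H1 genes, are shown because they hold an element that most other histone promoters lack. They are the 250 bases before the RefSeq transcription start on GRCm38.p6, at chr13:23738557-23738806 (Hist1h1c, plus) and chr13:23554782-23555031 (Hist1h1d, plus). These motifs were searched on both strands, and capitals mark every match. They are CCAAT (the CCAAT box), TATANA (a form of the TATA box, whose matches can overlap each other), AAACACA (the H1 box) and ATTTGCAT (the octamer), and the octamer has no match in this pair.
Hist1h1c: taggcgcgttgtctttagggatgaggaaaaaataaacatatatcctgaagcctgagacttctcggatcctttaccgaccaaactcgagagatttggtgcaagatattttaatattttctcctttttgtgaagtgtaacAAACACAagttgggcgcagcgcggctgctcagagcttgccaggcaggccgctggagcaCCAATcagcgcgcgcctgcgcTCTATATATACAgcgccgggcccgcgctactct
Hist1h1d: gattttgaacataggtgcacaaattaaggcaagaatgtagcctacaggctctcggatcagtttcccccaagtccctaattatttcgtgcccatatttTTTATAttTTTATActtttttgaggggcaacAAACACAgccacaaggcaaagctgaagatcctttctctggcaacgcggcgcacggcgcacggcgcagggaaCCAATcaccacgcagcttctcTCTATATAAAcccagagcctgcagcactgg
AAACACA stood in 5 of 6 H1 promoters and in 7 of the 38 histone promoters found in the RefSeq table (18.4%), against 7.2% of 27025 promoters of all genes. CCAAT was in 33 of 38 (86.8%), against 37.5% of all genes, with H4 as the exception at 3 of 8. TATANA was in 27 of 38 (71.1%), against 25.7%. ATTTGCAT, known from H2B promoters, was in 6 of 9 H2B and 5 of 9 H2A promoters, 28.9% of the 38 against 1.81% of all genes, and in none of the 6 H1, 6 H3 and 8 H4 promoters. These matches describe the letters of the window and not binding.

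Of the H2A genes, only Hist3h2a was tested. It lies in cluster 3 (chr11:58954685-58956830, plus), codes for a core histone, and overlaps the annotated spans of Gm44313 and Trim17. In PTKO it had 21.9, 22.1 and 23.7 RPKM in DMSO, 27.2, 26.7 and 19.2 RPKM in AA 2wk, and 32.5, 35.7 and 35.5 RPKM in AA 4wk libraries. For fl/fl the levels were 20.5, 22.9 and 24.5 RPKM in DMSO, 27.3, 32.8 and 21.3 RPKM in AA 2wk, and 26.4, 33.6 and 32.4 RPKM in AA 4wk libraries. The AA 4wk libraries did not overlap vehicle in either genotype, while AA 2wk overlapped it through the library numbered 3. It rose in PTKO AA 4wk by 0.59 (adjusted p = 0.0022) and in fl/fl AA 4wk by 0.42 (adjusted p = 0.0208) in the limma fit (log2 scale, SE 0.15), and it was called in neither under median-of-ratios scaling. The fl/fl AA 4wk call was lost without fl/fl AA 4wk library 2 or 3 or fl/fl DMSO library 1 (adjusted p 0.0631 to 0.0813). The AA 2wk values were 0.09 in PTKO and 0.23 in fl/fl (adjusted p = 0.604 and 0.179). Leaving out library 3 of both AA 2wk groups gave 0.25 (PTKO, adjusted p = 0.0535) and 0.39 (fl/fl, adjusted p = 0.00528). The 8 H2A genes with few reads had 12 reads in PTKO DMSO, 20 in PTKO AA 2wk and 45 in PTKO AA 4wk together, and 10, 26 and 51 reads in the same stages of fl/fl.

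Of 5 tested H2B genes, Hist1h2bc was called lower in 3 of the 4 comparisons and the others were called higher in 1 to 3 of them. Several of these calls changed with the scaling or with single libraries. Hist1h2bc (chr13:23684199-23692908, plus) codes for a core H2B. PTKO mice had 198, 184 and 218 RPKM in DMSO, 162, 187 and 131 RPKM in AA 2wk, and 139, 146 and 157 RPKM in AA 4wk libraries. In fl/fl it had 193, 215 and 234 RPKM in DMSO, 178, 200 and 209 RPKM in AA 2wk, and 152, 178 and 183 RPKM in AA 4wk libraries. The AA 4wk libraries lay below vehicle without overlap in both genotypes, and the AA 2wk libraries overlapped it. It fell by 0.44 in PTKO AA 4wk (adjusted p = 0.0061), by 0.32 in fl/fl AA 4wk (adjusted p = 0.0365) and by 0.33 in PTKO AA 2wk (adjusted p = 0.0337) on limma's log2 scale (SE 0.13). In fl/fl AA 2wk its log2 fold change was -0.13 (adjusted p = 0.399). Its PTKO AA 2wk value was -0.20 and no longer called (adjusted p = 0.132) once library 3 of both AA 2wk groups was left out, and that call was also lost without PTKO AA 2wk library 1 or PTKO DMSO library 1 or 3 (adjusted p 0.0610 to 0.123). The fl/fl AA 4wk call was lost without fl/fl AA 4wk library 1 or 2 (adjusted p = 0.151 and 0.0517) or fl/fl DMSO library 2 or 3 (adjusted p = 0.0711 and 0.135). Under quantile normalization it was called in none of the 4 comparisons (adjusted p 0.405 to 0.792), with log2 fold changes of -0.132 in PTKO AA 2wk, -0.101 in PTKO AA 4wk, 0.062 in fl/fl AA 2wk and -0.0422 in fl/fl AA 4wk.

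Hist2h2be (chr3:96221119-96223738, plus), an H2B gene of cluster 2 that shares none of its 50-base words with other annotated genes, was called higher in 3 of the 4 comparisons. In PTKO it had 2.35, 2.61 and 2.38 RPKM in DMSO, 3.68, 2.95 and 2.52 RPKM in AA 2wk, and 4.35, 4.41 and 3.48 RPKM in AA 4wk libraries. fl/fl libraries gave 2.22, 3.29 and 2.17 RPKM in DMSO, 3.49, 3.82 and 3.28 RPKM in AA 2wk, and 3.85, 4.21 and 3.75 RPKM in AA 4wk libraries. The AA 4wk libraries lay above vehicle without overlap in both genotypes, and the AA 2wk libraries overlapped it. It rose in PTKO AA 4wk by 0.56 (adjusted p = 0.0018), in fl/fl AA 4wk by 0.48 (adjusted p = 0.0055) and in fl/fl AA 2wk by 0.36 (adjusted p = 0.0301) in the limma fit (log2 scale, SE 0.13). The PTKO AA 2wk value was 0.22 (adjusted p = 0.161). The fl/fl AA 2wk call was lost without fl/fl AA 2wk library 1 or 2 or fl/fl DMSO library 1 or 3 (adjusted p 0.0623 to 0.116). Quantile normalization turned all 4 values negative, between -0.28 and -0.20, and called the gene lower in PTKO AA 2wk (adjusted p = 0.0206) and fl/fl AA 2wk (adjusted p = 0.0416).

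Hist3h2ba (chr11:58948920-58949533, plus) is the H2B neighbour of Hist3h2a. The PTKO levels were 0.296, 0.352 and 1.51 RPKM in DMSO, 1.06, 0.452 and 0 RPKM in AA 2wk, and 1.97, 2.14 and 1.38 RPKM in AA 4wk libraries. The fl/fl levels were 0.720, 0.621 and 0.684 RPKM in DMSO, 1.26, 1.13 and 0.695 RPKM in AA 2wk, and 1.28, 1.35 and 2.25 RPKM in AA 4wk libraries. The AA 4wk libraries lay above vehicle without overlap in fl/fl but not in PTKO, where 1 vehicle library had 1.51 RPKM. No other vehicle library reached 1 RPKM, so Hist3h2ba entered the test through the toxin libraries, and its calls carry that limit. It rose by 0.78 in PTKO AA 4wk (adjusted p = 0.0167) and by 0.63 in fl/fl AA 4wk (adjusted p = 0.0494) in the limma fit (log2 scale, SE 0.27). The fl/fl call did not survive leaving out any fl/fl AA 4wk library, and without library 3 of that group its adjusted p was 0.180. The PTKO call was lost without PTKO AA 4wk library 2 (adjusted p = 0.0576), PTKO DMSO library 1 (0.0803) or library 2 (0.0718), and with a pseudocount of 0.1 (0.0587) or median-of-ratios scaling (0.0826). Under quantile normalization the value was -0.0122 in PTKO AA 4wk (adjusted p = 0.968) and -0.13 in fl/fl AA 4wk (adjusted p = 0.657), and the gene was called lower in PTKO AA 2wk (-0.74, adjusted p = 0.0187).

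Hist1h2be (chr13:23583670-23621124, minus) had 0.327 to 0.551 RPKM in PTKO DMSO, 0.225 to 0.860 in PTKO AA 2wk and 0.943 to 1.11 in PTKO AA 4wk libraries, and rose in PTKO AA 4wk by 0.52 (log2 scale, limma adjusted p = 0.021). It is another gene that entered the test through the toxin libraries alone. fl/fl mice had 0.265 to 0.579 RPKM in DMSO, 0.288 to 1.16 in AA 2wk and 0.740 to 0.856 in AA 4wk libraries, with log2 fold changes of 0.33 (AA 2wk, adjusted p = 0.133) and 0.38 (AA 4wk, adjusted p = 0.0820). With library 3 of both AA 2wk groups left out it was called in all 4 comparisons: 0.38 in PTKO AA 2wk (adjusted p = 0.0113), 0.52 in PTKO AA 4wk (0.000459), 0.55 in fl/fl AA 2wk (0.000849) and 0.38 in fl/fl AA 4wk (0.00479). A further fit, chosen after the data were seen, treated same-numbered AA 2wk libraries of both genotypes as pairs (a block), though no label pairs them. In that fit Hist1h2be was also called in fl/fl AA 2wk (adjusted p = 0.0126) and fl/fl AA 4wk (0.00488). Both calls carry the limit that the pairing was inferred from the data it was applied to. The PTKO AA 4wk call was lost without PTKO AA 4wk library 1 or 2 or PTKO DMSO library 1 or 3 (adjusted p 0.0506 to 0.0664) and under median-of-ratios scaling (0.106), and quantile normalization called the gene lower in fl/fl AA 4wk (-0.41, adjusted p = 0.0209). The difference between the genotypes' effects, the interaction at AA 4wk, was 0.14 ± 0.27 (SE, limma adjusted p = 0.957).

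Hist1h2ba (chr13:23933773-23934156, minus) codes for a testis H2B variant of germ cells. In PTKO it had 1.16, 0.753 and 0 RPKM in DMSO, 2.02, 1.45 and 1.87 RPKM in AA 2wk, and 1.98, 0 and 1.48 RPKM in AA 4wk libraries. Values in fl/fl were 1.54, 0 and 0 RPKM in DMSO, 1.89, 1.75 and 2.04 RPKM in AA 2wk, and 0 RPKM in each AA 4wk library. Libraries with the gene held between 4 and 16 of its reads, and the rest held none. All 6 AA 2wk libraries held it, above all libraries of their own vehicle, and it rose in fl/fl AA 2wk by 1.08 ± 0.40 (SE, log2 scale, limma adjusted p = 0.0273), but not past the threshold in PTKO AA 2wk (0.83, adjusted p = 0.0831). The fl/fl call was lost without any single fl/fl AA 2wk library (adjusted p 0.0514 to 0.0595) and without fl/fl DMSO library 2 or 3 (adjusted p = 0.101 and 0.111). Too few vehicle libraries reached 1 RPKM for the test, so the gene entered it through the toxin libraries, and this call carries that limit. In fl/fl AA 4wk, 0 reads stood against 12 reads in fl/fl DMSO, all 12 in 1 library. This is at least 4.12-fold lower when 3 reads over the group are taken as the floor and the 12 reads are taken as counted. Of its 50-base words, 38.2% occur on either strand in transcripts of other annotated genes, and the labels do not say how reads that match several genes were assigned.

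The tested H4 genes differed among themselves. H4 is the most conserved core histone, and its genes code for near-identical proteins. Hist1h4h (chr13:23531050-23531519, plus) had 3.36, 4.11 and 4.18 RPKM in DMSO, 10.4, 12.0 and 4.63 RPKM in AA 2wk, and 7.85, 11.5 and 10.5 RPKM in AA 4wk libraries of PTKO. In fl/fl it had 3.06, 3.04 and 5.37 RPKM in DMSO, 9.51, 14.4 and 9.04 RPKM in AA 2wk, and 11.2, 11.8 and 16.3 RPKM in AA 4wk libraries. No toxin library overlapped vehicle, although PTKO AA 2wk library 3 lay close to it. It rose in PTKO by 0.95 (AA 2wk, adjusted p = 0.0094) and 1.15 (AA 4wk, adjusted p = 0.0019) and in fl/fl by 1.32 (AA 2wk, adjusted p = 0.0010) and 1.56 (AA 4wk, adjusted p = 0.000223) on limma's log2 scale (SE 0.28). Without PTKO AA 2wk library 2 the PTKO AA 2wk call was lost (0.72, adjusted p = 0.0563).

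Hist1h4d (chr13:23581598-23582735, plus) had 0, 0.442 and 0 RPKM in DMSO, 0.739, 0.189 and 0.657 RPKM in AA 2wk, and 1.39, 0.826 and 1.24 RPKM in AA 4wk libraries of PTKO. For fl/fl the levels were 0.301, 0 and 0 RPKM in DMSO, 0.633, 0.474 and 0.436 RPKM in AA 2wk, and 1.45, 0.768 and 1.48 RPKM in AA 4wk libraries. It was higher at AA 4wk than in vehicle in every library. It rose by 0.92 in PTKO AA 4wk (adjusted p = 0.000711), by 1.02 in fl/fl AA 4wk (adjusted p = 0.000401) and by 0.47 in fl/fl AA 2wk (adjusted p = 0.0495) in the limma fit (log2 scale, SE 0.20). Hist1h4d reached 1 RPKM in no DMSO library and entered the test through the toxin libraries. The fl/fl AA 2wk call was lost without any single fl/fl AA 2wk library and without fl/fl DMSO library 2 or 3, with adjusted p up to 0.138. In PTKO AA 2wk a value of 0.42 was not called (limma adjusted p = 0.0800), but was called under 5 of the alternatives run.

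Hist1h4i (chr13:22040636-22041362, minus) had 3.85, 2.22 and 1.91 RPKM in DMSO, 3.92, 6.56 and 3.40 RPKM in AA 2wk, and 3.53, 3.02 and 4.07 RPKM in AA 4wk libraries of PTKO. fl/fl libraries gave 3.16, 3.56 and 2.51 RPKM in DMSO, 6.51, 6.49 and 2.19 RPKM in AA 2wk, and 4.85, 2.24 and 3.93 RPKM in AA 4wk libraries. All groups overlapped vehicle, and limma's log2 fold changes, from 0.16 to 0.62 with an SE of 0.32, were not called (adjusted p 0.108 to 0.667). With library 3 of both AA 2wk groups left out, the AA 2wk values were 0.77 in PTKO (adjusted p = 0.0168) and 0.89 in fl/fl (adjusted p = 0.00793). Hist1h4c (chr13:23697635-23698454, minus) had between 0.151 and 1.95 RPKM, with log2 fold changes between -0.21 and 0.12 (SE 0.33) that were not called. The AA 2wk and AA 4wk values thus differed between H4 genes of the same cluster, although no test compared them.

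**Figure D2:**
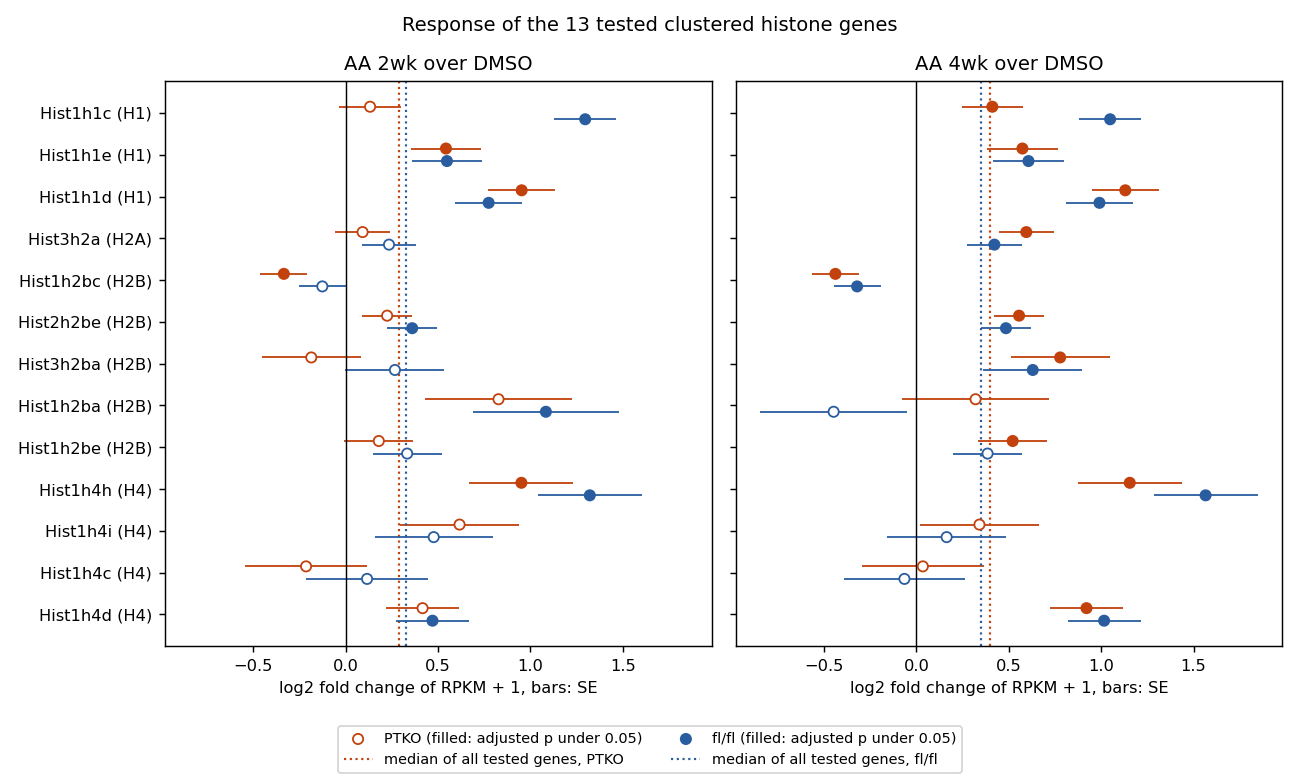
Log2 fold change over DMSO of the same genotype for the 13 tested histone genes (log2(RPKM + 1) scale, bars are SE), AA 2wk in the left panel and AA 4wk in the right, PTKO in red above fl/fl in blue; filled points are called in the limma fit and dotted lines are the medians of all tested genes. Hist1h4h and Hist1h1d lie to the right of these medians in all 4 comparisons, and Hist1h2bc lies below 0.

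No test set the counts of called histone genes apart from those of the table as a whole, and in PTKO AA 2wk a smaller share of them was called. In PTKO AA 2wk over PTKO DMSO, 3 of the 13 tested genes were higher and 1 was lower, where 60.2% of all 13624 tested genes were called (45.9% higher, 14.3% lower). PTKO AA 4wk gave 9 higher and 1 lower, where 72.2% of all genes were called (55% higher, 17.3% lower). fl/fl AA 2wk gave 7 higher and none lower (62.6% of all genes called, 50.4% higher and 12.2% lower). fl/fl AA 4wk gave 8 higher and 1 lower (66.3%, 51.9% and 14.3%). The median log2 fold change of the 13 genes was 0.22, 0.56, 0.47 and 0.48 in these comparisons, against 0.29, 0.40, 0.33 and 0.35 over all tested genes. Hist1h1d, Hist1h1e, Hist1h4d and Hist1h2be reached 1 RPKM in no DMSO library and entered the test through the toxin libraries alone. Hist3h2ba, Hist1h2ba and Hist1h4c reached it in too few DMSO libraries to enter without the toxin libraries. These counts therefore do not support a response of the family.

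Because most genes moved up together on the deposited scale, the direction of a small change depends on scaling. Of the calls over all genes, 76.3% were higher in PTKO AA 2wk, 76.1% in PTKO AA 4wk, 80.5% in fl/fl AA 2wk and 78.4% in fl/fl AA 4wk. Median-of-ratios scaling, which sets each library so that its typical gene stays level, brought these shares to 49.5%, 49.3%, 50.2% and 49.3%, and the median log2 fold change of all genes to 0.0020, 0.0032, -0.0063 and -0.0148. Under it, Hist1h4h and Hist1h1d were called higher in all 4 comparisons, Hist1h1c in both fl/fl ones (0.90 for AA 2wk and 0.62 for AA 4wk), and Hist1h4d in both AA 4wk ones. Hist1h2bc was called lower in all 4, with log2 fold changes of -0.68 (PTKO AA 2wk), -0.91 (PTKO AA 4wk), -0.53 (fl/fl AA 2wk) and -0.75 (fl/fl AA 4wk). Those are 2, 3, 3 and 4 genes higher and 1 lower in each, where 26.7%, 32.9%, 27.9% and 30% of all genes were called higher and 27.3%, 33.9%, 27.7% and 30.8% lower. Under quantile normalization Hist1h4h kept its call only in fl/fl, Hist1h1d only in PTKO, and Hist1h1c was called higher in all but PTKO AA 2wk. Hist3h2a was called higher in PTKO AA 4wk. The lower calls were Hist3h2ba, Hist1h4c and Hist2h2be in PTKO AA 2wk, Hist1h4c in PTKO AA 4wk, Hist2h2be in fl/fl AA 2wk, and Hist1h2be and Hist1h4c in fl/fl AA 4wk. Those are 1, 3, 2 and 2 genes higher and 3, 1, 1 and 2 lower, where 24.3%, 29.2%, 24.1% and 26.3% of all genes were called higher and 27.7%, 36.5%, 29.7% and 33.8% lower.

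A ratio of 2 genes within a library does not depend on that scaling. Relative to Hist1h2bc, chosen after its values were seen, Hist1h4h stood at 0.0169, 0.0223 and 0.0192 in PTKO DMSO, 0.0642, 0.0641 and 0.0354 in PTKO AA 2wk, and 0.0566, 0.0792 and 0.0665 in PTKO AA 4wk libraries. In fl/fl its ratio was 0.0158, 0.0141 and 0.0230 in DMSO, 0.0534, 0.0722 and 0.0432 in AA 2wk, and 0.0732, 0.0664 and 0.0894 in AA 4wk libraries. All 12 toxin libraries lay above all 6 vehicle libraries. The ratio of Hist1h1c to Hist1h2bc was 0.283, 0.255 and 0.295 in PTKO DMSO, 0.430, 0.392 and 0.337 in PTKO AA 2wk, and 0.521, 0.480 and 0.508 in PTKO AA 4wk libraries. Its fl/fl ratio was 0.221, 0.193 and 0.147 in DMSO, 0.571, 0.428 and 0.517 in AA 2wk, and 0.501, 0.474 and 0.474 in AA 4wk libraries. Here too every toxin library exceeded every vehicle library. The ratio of Hist3h2a to Hist1h2bc was 0.111, 0.120 and 0.109 in PTKO DMSO, 0.168, 0.143 and 0.147 in PTKO AA 2wk, and 0.234, 0.246 and 0.225 in PTKO AA 4wk libraries. For fl/fl it was 0.106, 0.107 and 0.105 in DMSO, 0.153, 0.164 and 0.102 in AA 2wk, and 0.173, 0.189 and 0.177 in AA 4wk libraries. Library 3 of fl/fl AA 2wk lay below vehicle, and the other toxin libraries lay above the vehicle libraries of their genotype. In DMSO and at AA 4wk, this ratio was higher in each PTKO than in each fl/fl library. The share of all genes whose ratio to Hist1h2bc separates groups in these ways was not counted. Without a ratio, 46.9% to 60.5% of all tested genes lay wholly above vehicle. A ratio shows unequal change of its genes and not which of them moved.

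**Figure D3:**
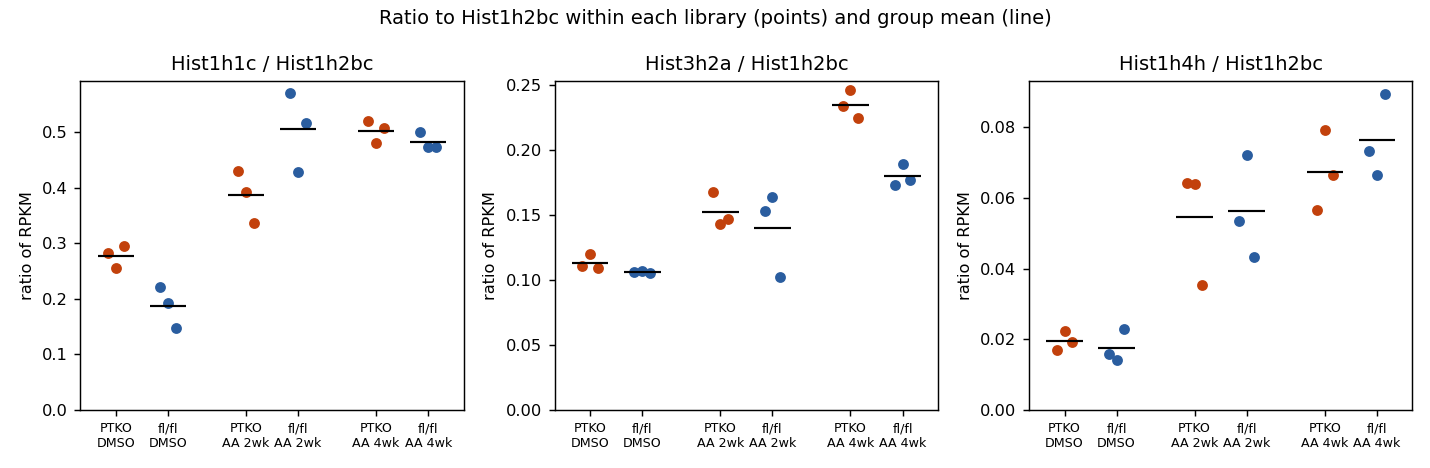
Ratio of the RPKM of Hist1h1c, Hist1h4h and Hist3h2a to that of Hist1h2bc in the same library (linear axes starting at 0), by group with PTKO left of fl/fl; each point is 1 library and each line the group mean. For Hist1h1c and Hist1h4h every AA library lies above every DMSO library.

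H3, the core histone that carries the most studied chromatin marks, had no tested gene, and its genes were almost unread in vehicle. All 12 H3 rows, taken without the rule, held a read in 0 to 3 rows per PTKO DMSO library, 2 to 6 rows in PTKO AA 2wk and 6 to 7 rows in PTKO AA 4wk. In fl/fl, 0 to 1 rows held a read in DMSO, 5 in each AA 2wk library and 6 to 7 in AA 4wk. The summed H3 level was 0 to 0.384 RPKM in PTKO DMSO, 0.339 to 2.5 in PTKO AA 2wk and 2.09 to 3.11 in PTKO AA 4wk libraries. fl/fl mice had 0 to 0.125 RPKM in DMSO, 0.916 to 2.05 in AA 2wk and 1.78 to 2.90 in AA 4wk libraries. Vehicle and toxin libraries therefore did not overlap in fl/fl, and in PTKO they overlapped at AA 2wk only. Hist1h3d had 0, 9 and 18 reads in the PTKO DMSO, AA 2wk and AA 4wk groups and 1, 15 and 25 reads in those of fl/fl. Hist1h3b had 0, 14 and 10 reads in PTKO and 0, 11 and 11 in fl/fl. With 3 reads over the vehicle group as the floor, Hist1h3b was at least 5.02-fold higher in PTKO AA 2wk, 3.88-fold in PTKO AA 4wk, 4.02-fold in fl/fl AA 2wk and 3.56-fold in fl/fl AA 4wk. Hist1h3d was at least 3.22-fold higher in PTKO AA 2wk and 6.98-fold in PTKO AA 4wk. Hist1h3b had no vehicle read and Hist1h3d had 1, so both met the rule through the toxin libraries, and these bounds carry that limit. The bounds cover only the counting error of the group at 0 reads. The toxin reads are pooled over libraries and taken as counted, so their own error is not covered. In PTKO AA 2wk, Hist1h3b and Hist1h3d each had reads in only 2 of 3 libraries. Reads of an amplified library are not independent molecules.

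The 30 histone genes below the filter had 0.895 to 0.912 RPM (reads scaled to library size only) in PTKO DMSO, 0.967 to 3.27 in PTKO AA 2wk and 3.01 to 5.35 in PTKO AA 4wk libraries. In fl/fl they had 0.758 to 1.16 RPM in DMSO, 1.53 to 4.01 in AA 2wk and 3.73 to 4.81 in AA 4wk libraries. Toxin libraries lay above vehicle libraries in each genotype and course. The rule itself favours genes read in toxin libraries, which are 12 of the 18, so this difference is not independent of it. All 55 histone rows outside the test, taken whether or not they met the rule, overlapped more at AA 2wk: 8 to 13 rows were above 0 in PTKO DMSO, 9 to 25 in PTKO AA 2wk and 20 to 33 in PTKO AA 4wk libraries. In fl/fl, 9 to 11 were above 0 in DMSO, 15 to 22 in AA 2wk and 26 to 30 in AA 4wk libraries. Over all 10437 untested rows of the table, 25.0% to 28.2%, 27.4% to 36.8% and 34.5% to 39.9% were above 0 in the PTKO stages, and 23.4% to 31.3%, 29.4% to 36.6% and 38.8% to 39.1% in those of fl/fl. Both shares were above vehicle at AA 4wk in each genotype, and at AA 2wk they overlapped it in PTKO for both and in fl/fl for all untested rows. No test set the histone rows apart from the others.

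**Figure D4:**
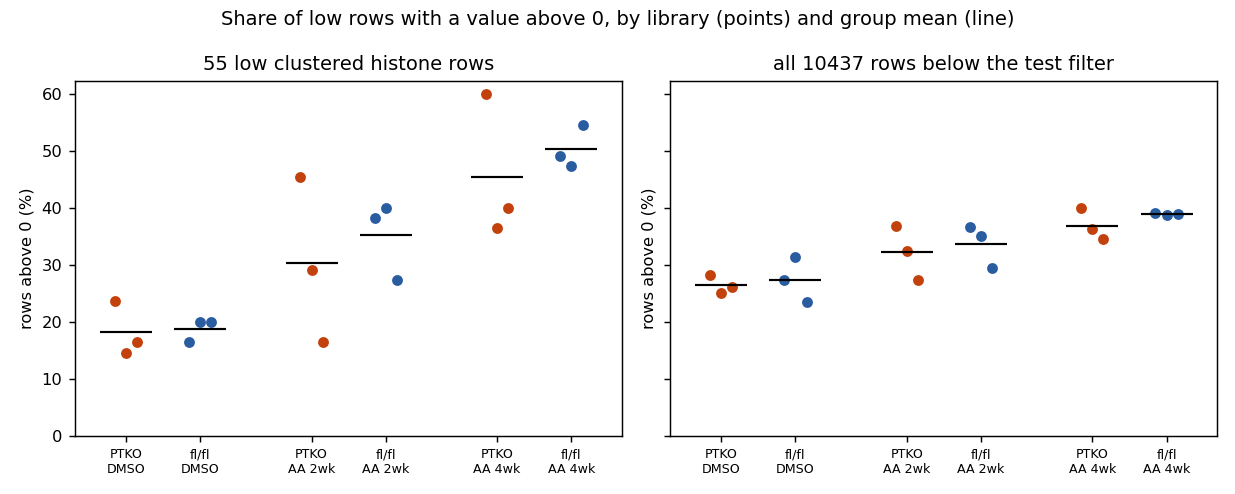
Share (percent) of rows above 0 RPKM per library among the 55 histone rows outside the test and among all 10437 untested rows, by group with PTKO left of fl/fl; each point is 1 library and each line the group mean. Both shares are higher in AA 4wk than in DMSO libraries of the same genotype.

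A fit of the same form on all 17579 genes above 0 in at least 6 libraries, without the filter, gave calls among these 30 genes. In PTKO AA 2wk 1 was higher (Hist1h3b), and in PTKO AA 4wk 8 were higher and 1 was lower (Hist1h2ah). In fl/fl AA 2wk 4 were higher (Hist1h2bj, Hist1h2bg, Hist1h3d and Hist1h3b), and in fl/fl AA 4wk 13 were higher and none was lower. Over all genes in that fit, 37.3%, 50%, 41.5% and 46.3% were called higher and 11.6%, 14.1%, 9.88% and 11.8% lower in the same comparisons. The rule favours genes read in toxin libraries, so the calls among the low genes are not independent of it. In PTKO AA 4wk over PTKO AA 2wk, 2 were higher (Hist1h2bg and Hist2h2ac), where 3.13% of all genes were higher and 1.29% lower. Hist1h2bj, an H2B gene, had 0, 4 and 6 reads in PTKO and 0, 16 and 21 reads in fl/fl (DMSO, AA 2wk, AA 4wk). Against the same floor, with its toxin reads taken as counted, it was at least 5.84-fold higher in fl/fl AA 2wk. In fl/fl AA 4wk it was at least 6.79-fold higher than in fl/fl DMSO. Hist1h2bj had no vehicle read, so it met the rule through the toxin libraries alone, and its bounds carry that limit. Hist1h2bg had 0, 3 and 13 reads in PTKO and 1, 8 and 18 in fl/fl. Hist2h4, an H4 gene of cluster 2, had 2, 8 and 11 reads in PTKO and 4, 11 and 20 in fl/fl. A few went the other way: Hist1h2bb had 5, 4 and 2 reads in PTKO and 10, 6 and 3 in fl/fl, and Hist1h2bk 4, 3 and 4 in PTKO and 12, 5 and 7 in fl/fl. Of the low genes, the 1 called lower, Hist1h2ah, had 6, 3 and 0 reads in PTKO and 3, 2 and 2 in fl/fl.

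**Figure D5:**
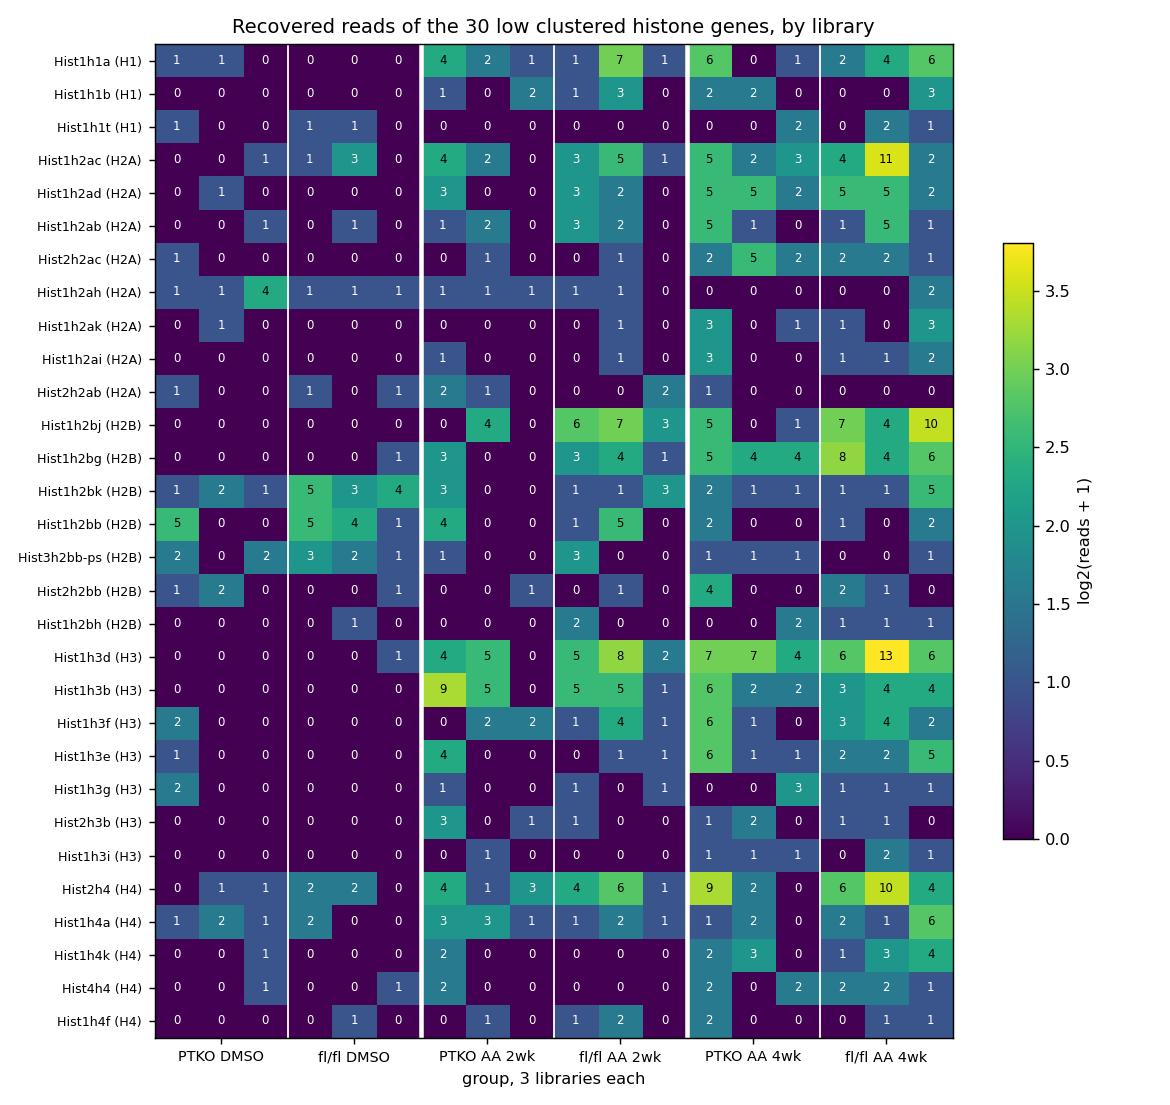
Recovered reads of the 30 untested histone genes, 1 row per gene and 1 column per library, with 3 libraries per group and PTKO left of fl/fl at each stage; numbers are reads and colour is log2(reads + 1). The H3 rows are almost empty in DMSO libraries, where Hist1h3b has no read and Hist1h3d has 1.

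The low genes had more sequence in common with other annotated genes in the median, but not one by one. The median share of 50-base words found in a transcript of another annotated gene, on either strand, was 54.55% for the 30 low genes (range 0% to 100%). It was 22.1% for the 13 tested genes (0% to 45.8%) and 85.6% for the 25 rows outside the rule. The other genes include some that overlap a histone row, as Gm20628 overlaps Hist2h3b. Hist1h1a, Hist1h1b and Hist1h1t shared none and Hist2h4 1%. The annotated transcripts were also shorter, with a median of 525 bases against 1156 for the tested genes and 485 for the rows outside the rule. The stem-loop stood in the longest transcript of 17 of the 30 low genes and of 10 of the 13 tested ones, with a median of 155 and 805 bases after it. The length that the RPKM steps imply was within 2 bases of the RefSeq gene span for 34 of the 43 genes. For Hist1h1c it was 725 bases, against 1560 in the GENCODE transcript, and the RefSeq model ends 4 bases after the site's loop. The part that shared sequence has in the low values was not tested.

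The genotype was compared within each treatment, to ask whether loss of tubular Klf15 changes these genes. No histone gene was called in PTKO DMSO over fl/fl DMSO, where 0.0367% of all genes were (0.0147% higher, 0.022% lower), nor in PTKO AA 2wk over fl/fl AA 2wk or PTKO AA 4wk over fl/fl AA 4wk, where 0.00734% were in each, all lower. At an unadjusted p under 0.05 the limma fit gave 1, 2 and 1 of the 13 genes, and limma-voom on the recovered reads called none in any of the 3 comparisons. The genes under the unadjusted threshold were Hist1h1c in DMSO, Hist1h1c and Hist1h2bc (-0.30, adjusted p = 0.707) at AA 2wk, and Hist1h2ba (0.96 ± 0.40 SE, adjusted p = 0.812) at AA 4wk. The share of all genes at that threshold was not counted, so no excess can be read from these counts. Hist1h1c averaged 55.8 ± 8.65 RPKM in PTKO DMSO and 39.5 ± 4.42 RPKM in fl/fl DMSO (SD, n = 3 each), with every PTKO above every fl/fl library, a log2 fold change of 0.48 ± 0.17 (SE) and an adjusted p of 0.813 (limma). Of all tested genes, 7.88% had all PTKO DMSO libraries above all fl/fl DMSO libraries and 5.77% had them all below. After AA 2wk the order was the reverse: 62.3 ± 15.9 RPKM in PTKO and 98.5 ± 11.7 RPKM in fl/fl, every PTKO library below every fl/fl library (4.74% of genes did this), and a log2 fold change of -0.68 ± 0.17 (SE, limma adjusted p = 0.348). With library 3 of both groups left out it was -0.38 (adjusted p = 1). At AA 4wk the means were 74.1 ± 5.30 RPKM in PTKO and 82.5 ± 5.36 RPKM in fl/fl, with a log2 fold change of -0.15 (adjusted p = 0.862).

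The difference between the genotypes in the toxin's effect, tested as an interaction, reached no call among the histone genes, where 0.0147% (AA 2wk) and 0.00734% (AA 4wk) of all genes were called. At an unadjusted p under 0.05, where the share of all genes was not counted, each interaction had 1 histone gene, Hist1h1c in both. Its interaction was -1.16 ± 0.24 for AA 2wk (SE, limma adjusted p = 0.471) and -0.64 for AA 4wk (adjusted p = 0.934). With those libraries left out the AA 2wk interaction was -0.87 (adjusted p = 0.764), and over all alternatives its adjusted p ran from 0.0837 to 0.999. For the other 12 tested genes the AA 2wk interaction lay between -0.45 and 0.18. Hist1h2be at AA 4wk was the only other gene whose libraries did not overlap between genotypes, with each PTKO library above each fl/fl library, where 14.1% of all genes did the same and 9.73% had each PTKO library below.

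Between the remodeling stage and the end of the toxin course, no histone gene was called in PTKO AA 4wk over PTKO AA 2wk (4.16% of all genes were, 2.6% higher and 1.56% lower) or in fl/fl AA 4wk over fl/fl AA 2wk (0.125% were, 0.0661% higher and 0.0587% lower). In PTKO, 4 of 13 genes had an unadjusted p under 0.05 in the limma fit. The share of all genes at that unadjusted threshold was not counted in either genotype, so no excess can be read from such counts. Hist3h2ba averaged 1.83 ± 0.398 RPKM in PTKO AA 4wk and 0.504 ± 0.532 RPKM in PTKO AA 2wk (SD, n = 3 each), a log2 fold change of 0.96 ± 0.27 (SE, adjusted p = 0.0546). Hist3h2a averaged 34.6 ± 1.80 and 24.4 ± 4.49 RPKM in PTKO AA 4wk and PTKO AA 2wk (SD, n = 3 each), a log2 fold change of 0.50 ± 0.15 (SE, adjusted p = 0.0649). Same-numbered AA 2wk libraries of the genotypes varied together, though no label pairs them. With a replicate block within these groups, added after seeing the data, Hist3h2ba and Hist3h2a passed the threshold (limma adjusted p = 0.00767 and 0.00241). Hist1h2be did so too (0.34, adjusted p = 0.0316). These calls rest on a pairing read from the same data. In fl/fl, 2 genes had an unadjusted p under 0.05: Hist1h2ba, with 0 reads in fl/fl AA 4wk and 38 in fl/fl AA 2wk (adjusted p = 0.146), and Hist1h4d (0.55, adjusted p = 0.304).

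Genes of the cell cycle and of histone supply were followed as lists chosen from textbook knowledge, with earlier results of these data known. Of 25 S phase genes, 23 were higher and 1 was lower in PTKO AA 2wk, 24 and 1 in PTKO AA 4wk, 24 and 1 in fl/fl AA 2wk, and 22 and 1 in fl/fl AA 4wk over DMSO of the same genotype, at adjusted p under 0.05 in limma. Median-of-ratios scaling gave 20, 20, 23 and 18 higher and 1 lower in each, and quantile normalization 19, 16, 18 and 13 higher and 1, 2, 1 and 2 lower. The list's median log2 fold change was 1.17, 1.32, 1.31 and 1.11, against 0.29, 0.40, 0.33 and 0.35 over all genes. Rrm2, the small subunit of ribonucleotide reductase, averaged 16.3 ± 8.02 RPKM in PTKO AA 2wk and 2.21 ± 0.987 RPKM in PTKO DMSO, and 18.7 ± 5.81 RPKM in fl/fl AA 2wk and 1.54 ± 0.418 RPKM in fl/fl DMSO (SD, n = 3 each). Mcm3 and Mcm5, subunits of the replicative helicase, rose in fl/fl AA 2wk by 2.40 and 2.22 on the log2 scale (limma adjusted p = 1.74e-05 and 2.97e-05). All 15 G2 and M phase genes were higher in each of the 4 comparisons (14 or 15 under median-of-ratios scaling and 12 to 14 under quantile normalization), among them Top2a, a topoisomerase of dividing cells, with 12.2 ± 7.37 RPKM in PTKO AA 2wk and 0.814 ± 0.537 RPKM in PTKO DMSO libraries (SD, n = 3 each). In fl/fl AA 2wk, Ube2c and Ccna2, which drive mitosis, rose by 3.18 and 2.68 (log2, limma adjusted p = 8.16e-05 and 6.71e-05). Among the tested histone genes, the log2 fold changes in that comparison ran from -0.13 to 1.32. No test compared the lists with the histone genes.

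Genes that process histone mRNA rose by small amounts on the deposited scale. Of 13 tested, 11 were higher and none lower in each of the 4 comparisons. Their median log2 fold change was 0.45 (PTKO AA 2wk), 0.49 (PTKO AA 4wk), 0.47 (fl/fl AA 2wk) and 0.46 (fl/fl AA 4wk). Over all genes the medians were 0.29, 0.40, 0.33 and 0.35, and 45.9%, 55%, 50.4% and 51.9% were called higher. Under median-of-ratios scaling only 4, 3, 5 and 2 were higher, and 0, 3, 1 and 1 were lower. Of all genes, 26.7%, 32.9%, 27.9% and 30% were higher under it. Quantile normalization gave 3, 3, 2 and 2 higher and 0, 2, 0 and 3 lower. Slbp, which binds the stem-loops shown earlier, averaged 12.3 ± 3.24 RPKM in PTKO AA 2wk and 6.96 ± 0.876 RPKM in PTKO DMSO (SD, n = 3 each; log2 0.72, limma adjusted p = 0.00135). In fl/fl it averaged 13.7 ± 1.40 RPKM in AA 2wk and 6.85 ± 1.07 RPKM in DMSO (SD, n = 3 each; log2 0.91, adjusted p = 0.000221). Eri1, an exonuclease that trims the loop's end, and Casp8ap2, a histone locus body protein, rose in fl/fl AA 2wk by 0.87 and 0.66 (log2, limma adjusted p = 0.00129 and 0.00357).

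Replication-independent histone genes, most of which give polyadenylated mRNAs, gave 6, 7, 6 and 8 higher and 0, 1, 0 and 1 lower of 11 tested in PTKO AA 2wk, PTKO AA 4wk, fl/fl AA 2wk and fl/fl AA 4wk, where 45.9%, 55%, 50.4% and 51.9% of all genes were higher. H2afj was the lower gene. Under median-of-ratios scaling the counts were 4, 5, 4 and 4 higher and 2, 3, 2 and 2 lower. H2afx, the variant marked at DNA breaks, averaged 17.4 ± 6.07 RPKM in PTKO AA 2wk and 7.36 ± 0.821 RPKM in PTKO DMSO, and 18.4 ± 4.28 RPKM in fl/fl AA 2wk and 6.96 ± 0.530 RPKM in fl/fl DMSO (SD, n = 3 each). Cenpa, the centromeric H3, and the linker variant H1fx rose in fl/fl AA 2wk by 1.88 and 1.17 (log2, limma adjusted p = 0.000213 and 0.000594). Of 18 tested histone chaperone genes, 14, 14, 13 and 15 were higher and none lower, led in fl/fl AA 2wk by Asf1b, Chaf1b and Dnajc9 (log2 2.61, 1.80 and 1.27), which handle new H3 and H4. Median-of-ratios scaling gave 9, 11, 7 and 7 chaperone genes higher and 2, 4, 1 and 3 lower. Of 10 genes of G1 arrest, 8, 10, 9 and 10 were higher, and 6, 5, 6 and 6 were higher and 1, 1, 0 and 0 lower under median-of-ratios scaling. The chaperone and G1 arrest counts stand beside the same shares of all genes as the first list of this paragraph. Under median-of-ratios scaling, 26.7%, 32.9%, 27.9% and 30% of all genes were higher. Cdkn1a, a Cdk inhibitor induced by p53, averaged 292 ± 76.3 RPKM in PTKO AA 2wk and 3.28 ± 0.188 RPKM in PTKO DMSO (SD, n = 3 each). No gene of any of these lists was called in a genotype or interaction comparison.

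Markers of other cell types moved with the toxin as well. All 10 macrophage genes were higher in PTKO AA 2wk, PTKO AA 4wk and fl/fl AA 4wk, and 9 of 10 in fl/fl AA 2wk. Their summed level was 83.6 to 129 RPKM in PTKO DMSO, 927 to 2610 in PTKO AA 2wk and 3480 to 4850 in PTKO AA 4wk libraries, and 69.1 to 111, 452 to 2910 and 2150 to 3250 RPKM in the same stages of fl/fl. All 7 T cell genes were higher in all 4, with a summed level of 2.66 to 2.80, 14.3 to 76.7 and 98.1 to 109 RPKM in PTKO, and 1.72 to 2.96, 10.7 to 95.4 and 66.1 to 75.9 RPKM in fl/fl. Of 4 tested B and plasma cell genes 2, 3, 1 and 4 were higher, and of 8 fibroblast genes 1, 7, 6 and 7 were. All 8 tubular injury genes were higher in all 4 comparisons, and of 10 proximal tubule genes 7, 10, 8 and 8 were lower. Their summed level was 1340 to 3390 RPKM in PTKO AA 2wk and 851 to 1420 in PTKO AA 4wk, and 1440 to 2730 RPKM in fl/fl AA 2wk and 1650 to 1940 in fl/fl AA 4wk libraries. No marker of the immune, fibroblast and tubule lists was at 0 in all libraries of a group. By median change, the immune, fibroblast and injury lists moved in the direction of the histone genes that rose, and the proximal tubule list moved the other way. The part of these cell types in the histone values was not tested.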

How the data were processed

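Per the file headers, the authors deposited RPKM values for 24062 genes in 18 libraries. Per the submitters' processing notes, bcl2fastq, kallisto (version not given) and mm10 were used. How reads were assigned, and whether strand was used, is not given in the sources used here, so reads of overlapping or near-identical genes are uncertain. RPKM fixes each library to its own total, and a shift in many genes moves all values.

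Whole reads were recovered from the RPKM steps for all 17579 genes above 0 in at least 6 libraries (within 0.02 reads). A gene was tested where 3 libraries or more reached 1 RPKM, and the 13624 such genes were fitted on log2(RPKM + 1) with limma 3.58.1 (R 4.3.3): 6 group means, 11 contrasts, intensity trend, robust moderation, two-sided tests, Benjamini-Hochberg adjustment over all tested genes, calls at 0.05. An exact permutation test of 3 against 3 libraries cannot go below 0.1. The fit was tested on simulated data. Values in every library are given for the 6 tested genes with the highest mean and the 5 largest called changes each way in fl/fl under either course, and 3 called genes per other list are named. The histone genes and lists were chosen with earlier results of these data known. Deviations of same-numbered libraries of both genotypes correlated at 0.44, 0.43 and 0.66 in AA 2wk, 0.07, 0.20 and 0.15 in DMSO and 0.06, 0.15 and 0.22 in AA 4wk, so the numbers were taken to pair the AA 2wk groups only. Coordinates and transcripts are GENCODE M21 (GRCm38), promoters RefSeq (GRCm38.p6), and 67 of 68 rows matched 1 RefSeq gene. Alternatives were another pseudocount (0.1), no filter, median-of-ratios and quantile scaling, limma-voom on recovered reads, replicate blocks, and leaving out libraries. A gene of the S phase list is not reported here by name.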

Additional observations from a re-analysis of the deposited data

How the results depend on the processing

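The 5 genotype and interaction comparisons and fl/fl AA 4wk over fl/fl AA 2wk gave 0 called histone genes under every alternative run. The other counts moved. PTKO AA 2wk over PTKO DMSO (4 genes) gave 7 with limma-voom and no filter and 2 to 5 when leaving out each library. PTKO AA 4wk over PTKO DMSO (10) gave 19 with no filter, 4 under median-of-ratios scaling, 4 under quantile normalization, 19 with limma-voom and no filter and 7 to 10 when leaving out each library. fl/fl AA 2wk over fl/fl DMSO (7) gave 11, 4, 3 and 13 under these settings and 3 to 8 when leaving out each library, 3 of them without fl/fl DMSO library 3 or fl/fl AA 2wk library 2. fl/fl AA 4wk over fl/fl DMSO (9) gave 21, 5, 4 and 21, and 6 to 10. PTKO AA 4wk over PTKO AA 2wk (0) gave 2 with no filter, 1 under quantile normalization, 2 with the replicate block, 3 with that block limited to the AA 2wk groups, chosen after seeing the data as was limma-voom without a filter, and 0 to 2 when leaving out each library. Counts without a filter rise because 43 and not 13 genes are tested. In the AA comparisons over DMSO the replicate block gave 4, 10, 7 and 8 calls, and the block within the AA 2wk groups 5, 10, 9 and 10. Without both AA 2wk libraries numbered 3 the counts were 6, 10, 8 and 10.

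Direction reversed under quantile normalization for Hist2h2be (-0.28 in PTKO AA 2wk, -0.20 in PTKO AA 4wk, -0.24 in fl/fl AA 2wk, -0.21 in fl/fl AA 4wk), Hist1h1e (-0.20 in PTKO AA 4wk, -0.0822 in fl/fl AA 2wk, -0.15 in fl/fl AA 4wk), Hist1h2be (-0.28 in PTKO AA 4wk, -0.41 in fl/fl AA 4wk), Hist3h2ba (-0.0122 in PTKO AA 4wk, -0.13 in fl/fl AA 4wk) and Hist1h4c (-0.72 in PTKO AA 4wk), and under median-of-ratios scaling for Hist1h1c (-0.0571 in PTKO AA 4wk). The cause was not tested. Depth limits the 30 low genes: 3 reads over a group are the smallest level a group's reads can set apart from 0.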

Other observations

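Non-coding RNAs without a poly(A) tail, chosen after their values were seen, are given beside vehicle. Rmrp, the RNA of a ribonuclease complex, had 5.63 to 18.2 RPKM in PTKO AA 4wk and 1.78 to 3.25 RPKM in PTKO DMSO libraries, and 5.36 to 11.4 RPKM in fl/fl AA 4wk and 0.626 to 3.22 RPKM in fl/fl DMSO libraries. Rpph1, the RNA of ribonuclease P, had 6.73 to 17.3 RPKM in PTKO AA 4wk and 3.23 to 8.51 RPKM in PTKO DMSO libraries, and 12.4 to 16.1 RPKM in fl/fl AA 4wk and 2.33 to 7.84 RPKM in fl/fl DMSO libraries. Lying wholly above vehicle was common at AA 4wk, in 60.5% (PTKO) and 55.6% (fl/fl) of all tested genes. At AA 4wk Rmrp lay above vehicle in both genotypes and Rpph1 in fl/fl, while Rpph1 overlapped vehicle in PTKO. At AA 2wk both overlapped vehicle: Rmrp had 2.05 to 3.56 RPKM in PTKO and 1.46 to 4.24 RPKM in fl/fl, and Rpph1 4.71 to 7.50 RPKM in PTKO and 3.93 to 8.79 RPKM in fl/fl. How these values bear on the histone mRNAs without a tail was not tested.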
